A study of Homo sapiens with 12 samples.

Results

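The SWI/SNF subunits were examined as a set of 10 genes across 12 RNA-seq libraries of 2 human ovarian tumour cell lines, KGN and COV434, cultured with or without 77-39, a small-molecule inhibitor of the mitochondrial deacetylase SIRT3. The 10 members (SMARCA4, SMARCA2, SMARCB1, SMARCC1, SMARCC2, SMARCD1, SMARCE1, ARID1A, ARID1B and PBRM1) were found by symbol among the 58735 genes of the deposited table, and all 10 were present. They were chosen by name with their measured values in the 4 groups already known, because loss of SMARCA4 and SMARCA2 marks 1 ovarian tumour type, so the contrast between the lines is given as a description with no test. The 4 groups were untreated and 77-39-treated libraries labelled KGN and the same for COV434, with 3 libraries in each. Both lines are labelled as granulosa cell tumour and wild type in genotype. Treatment lasted 72 h at a dose that the labels write as 10 um/ml, which does not tell a molar from a mass concentration. That text is attached to every sample, and the untreated groups were told apart by the sample titles. Nothing in the labels says whether the 3 libraries of a group came from separate cultures, so p-values measure the spread between these libraries, which may be technical.

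SWI/SNF complexes use the energy of ATP to slide or evict nucleosomes and so open promoters and enhancers. Each complex holds 1 ATPase, either SMARCA4 (BRG1) or its paralogue SMARCA2 (BRM). In canonical BAF and in PBAF the ATPase sits on a core of SMARCC, SMARCD, SMARCB1 and SMARCE1 proteins. Canonical BAF is finished by ARID1A or ARID1B, and PBAF by PBRM1, ARID2 and BRD7. Small cell carcinoma of the ovary, hypercalcaemic type, is known for loss of SMARCA4 together with silencing of SMARCA2, and COV434, long used as a granulosa cell tumour line, has been reassigned to that tumour, whereas KGN is known as an adult-type granulosa cell tumour line with a mutant but expressed FOXL2.

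Expression was given by the authors as FPKM, fragments scaled to gene length and a depth per library. From these values whole reads were recovered for every gene, between 15547851 and 18280415 per library. That depth was not the recovered total alone. For SMARCA4, 3 reads stood for 0.0103 FPKM in untreated KGN-labelled library 1, with 16803402 reads recovered. In untreated COV434-labelled library 1 they stood for 0.0115 FPKM, with 17701495 recovered. Ratios of FPKM between labels thus differ from ratios per recovered read. Against the background above, the measured pattern of SMARCA2 and of FOXL2 lay on the opposite labels. The KGN-labelled libraries held 13 reads of SMARCA2 and 2 of FOXL2 in all 6 together, and the COV434-labelled libraries 9860 and 3769. SMARCA4 was lower in the KGN-labelled libraries but not lost, with 634 to 807 reads in each. Of 15 granulosa cell markers, 3 had a mean of at least 1 FPKM in the KGN-labelled libraries and 6 in the COV434-labelled ones, with summed levels of 54.3 to 70.2 and 35.1 to 42.1 FPKM, and FSHR was at 0 in both. WT1 alone carried most of the first sum, with a mean of 53.3 FPKM in the KGN-labelled libraries and 0 in the others. Of 5 epithelial markers none reached 1 FPKM in the KGN-labelled libraries (summed level at most 0.102 FPKM) and 3 did in the COV434-labelled ones (332 to 519 FPKM). The 3 were the keratins KRT8, KRT18 and KRT19, while EPCAM and CDH1 had means of 0.0153 and 0.107 FPKM there. Of 5 mesenchymal markers, 1 had a mean of at least 1 FPKM in the KGN-labelled libraries and 3 in the COV434-labelled ones. Libraries are therefore named by their labels throughout, and which line each came from was not tested further.

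The RefSeq promoters of both ATPase genes, from 250 bases before to 50 after the most upstream RefSeq start, are shown because the complex carries either of these 2 ATPases. The RefSeq start of SMARCA2 lies 35057 bases downstream of the start of its GENCODE gene, and that of SMARCA4 205 bases. Both lie on the plus strand of GRCh38.p14, SMARCA2 at chr9:2015097-2015396 and SMARCA4 at chr19:10960780-10961079. The capitals mark CG dinucleotides, the letters at which DNA can be methylated.
SMARCA2: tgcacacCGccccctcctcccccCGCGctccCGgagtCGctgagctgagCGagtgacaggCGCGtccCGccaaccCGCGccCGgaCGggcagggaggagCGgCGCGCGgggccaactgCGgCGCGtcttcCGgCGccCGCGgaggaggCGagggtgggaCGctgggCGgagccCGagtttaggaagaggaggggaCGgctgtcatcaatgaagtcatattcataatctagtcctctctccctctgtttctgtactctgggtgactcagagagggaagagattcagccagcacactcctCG
SMARCA4: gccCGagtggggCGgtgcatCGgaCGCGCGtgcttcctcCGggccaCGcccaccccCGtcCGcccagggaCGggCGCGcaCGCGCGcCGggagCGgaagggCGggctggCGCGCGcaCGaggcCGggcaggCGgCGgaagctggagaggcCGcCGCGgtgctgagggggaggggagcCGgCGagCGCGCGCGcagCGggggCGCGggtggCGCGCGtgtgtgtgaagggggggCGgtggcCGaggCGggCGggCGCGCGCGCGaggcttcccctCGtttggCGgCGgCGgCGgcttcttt
The SMARCA2 window held 30 CG dinucleotides and 66.7% G and C, and 22.4% of the 35116 promoters of that length held as many CG (median 14). The 3 other RefSeq starts of SMARCA2, all further downstream, held 3, 4 and 9. For SMARCA4 the count was 55, at 81.3% G and C, reached by 0.4% of promoters. The other RefSeq start of SMARCA4, also further downstream, held 5. A CG reads the same on both strands, and no methylation was measured here.

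SMARCA4 (ENSG00000127616, chromosome 19, 10960825 to 11079426) was expressed in every library and lower in those labelled KGN. Its level there was 2.56, 2.58 and 2.60 FPKM in untreated libraries 1, 2 and 3 and 2.25, 2.28 and 2.48 FPKM in treated ones. The corresponding values in the COV434-labelled libraries were 12.6, 6.51 and 8.51 FPKM untreated and 9.91, 6.64 and 7.41 FPKM treated. All 6 COV434-labelled libraries thus lay above all 6 KGN-labelled ones, and the untreated mean was 3.58 times higher (9.22 ± 3.13 against 2.58 ± 0.0210 FPKM, SD, n = 3). SMARCA4 RNA was reduced rather than missing in the KGN-labelled libraries, with 634 to 807 reads in each.

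SMARCA2 (ENSG00000080503, chromosome 9, 1980290 to 2193624) was at the limit of detection in the KGN-labelled libraries. It had 3, 2 and 3 reads in the untreated and 1, 2 and 2 reads in the treated libraries, no level above 0.00870 FPKM. In COV434-labelled libraries it stood at 6.48, 5.23 and 5.25 FPKM without and 5.70, 4.89 and 4.51 FPKM with 77-39, from 1493 to 1996 reads each. Per recovered read, SMARCA2 was 714 times higher in the COV434-labelled libraries, with a 95% interval of 418 to 1342 that covers counting error only. On the FPKM scale, which uses another depth, the means over 6 libraries were 5.34 in the COV434-labelled and 0.00645 in the KGN-labelled ones. The summed level of both ATPases was 2.59 ± 0.0206 FPKM in untreated KGN-labelled libraries and 14.9 ± 3.82 FPKM in untreated COV434-labelled ones (SD, n = 3). With 77-39 the sums were 2.34 ± 0.127 and 13.0 ± 2.25 FPKM.

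**Figure D1:**
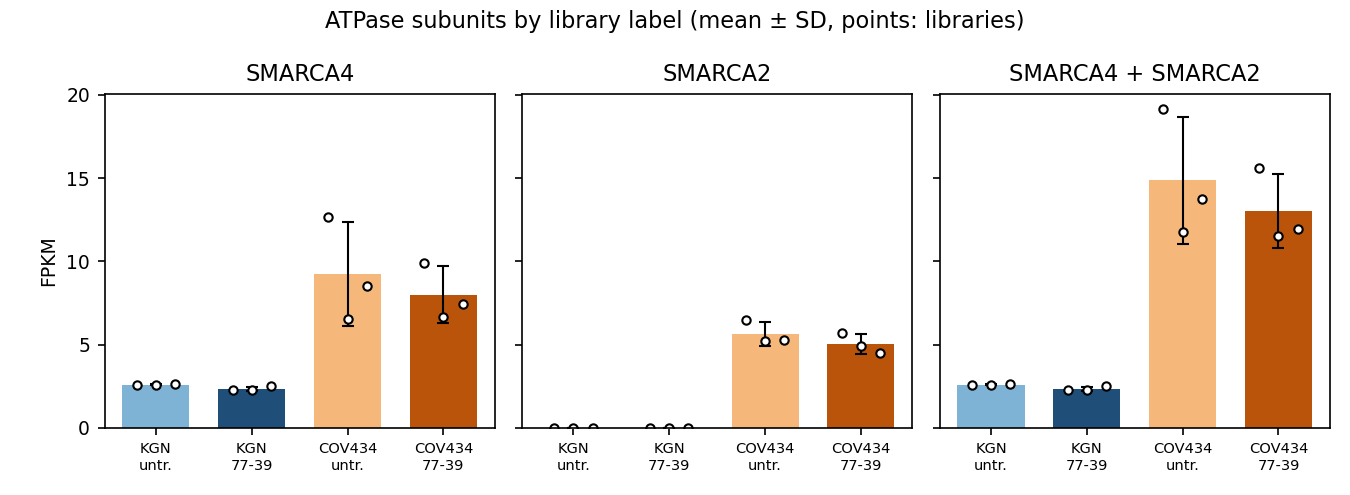
FPKM (y axis) of SMARCA4, SMARCA2 and their sum in the 4 groups named by library label (x axis), as the mean with its SD (bars) and the 3 libraries (points). SMARCA2 lies at the baseline in all 6 KGN-labelled libraries, where the summed level, between 2.26 and 2.61 FPKM, is almost all SMARCA4.

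As a share of the 2 ATPases, SMARCA4 made up 99.7% in the KGN-labelled and 61.1% in the COV434-labelled libraries (SD 0.0722 and 3.92, n = 6 libraries of both treatments). Since FPKM is per length of all merged exons, and those are 15778 bases for SMARCA4 and 18595 for SMARCA2, the pair can be compared on this scale. With 77-39 the share moved from 61.2% ± 5.36 to 61.1% ± 3.10 in the COV434-labelled libraries (SD, n = 3, two-sided exact permutation test, p = 1.0, where 0.1 is the smallest p that 3 against 3 libraries allow). The 99.7% ± 0.0498 untreated and 99.8% ± 0.0759 treated of the KGN-labelled libraries rest on the few SMARCA2 reads (exact permutation p = 0.3).

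The core subunits, which hold the complex together, were all measured at well over the level of the ATPases in the KGN-labelled libraries, except SMARCE1. SMARCC1 (BAF155; ENSG00000173473, chromosome 3, 47585272 to 47782106) had the highest level of the members under both labels per length of merged exons. It stood at 25.5, 26.8 and 26.9 FPKM in untreated KGN-labelled libraries and at 40.0, 27.4 and 29.9 FPKM in untreated COV434-labelled ones. The ranges over all 6 libraries of each label overlapped, from 22.5 to 26.9 and from 24.8 to 40.0 FPKM. SMARCC2 (BAF170; ENSG00000139613, chromosome 12, 56162983 to 56189567), its paralogue, was at 16.9, 19.0 and 17.0 FPKM and at 18.3, 11.0 and 12.3 FPKM in the same libraries, so these groups overlapped too.

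SMARCD1 (BAF60A; ENSG00000066117, chromosome 12, 50084972 to 50100712) differed more by label. It had 13.0, 14.8 and 15.2 FPKM in untreated KGN-labelled libraries and 26.9, 20.5 and 25.1 FPKM in untreated COV434-labelled ones, a mean 1.68 times higher in the latter. All 6 COV434-labelled libraries lay above all 6 KGN-labelled ones. SMARCB1 (SNF5), the subunit lost in rhabdoid tumours (ENSG00000099956, chromosome 22, 23786931 to 23838008), was at nearly the same level under both labels, with means of 5.04 ± 0.135 and 5.10 ± 0.565 FPKM (SD, n = 3). Opposite-strand DERL3 covers 56.1% of the bases of its principal transcript and had at most 29 reads in any library, against 1218 to 1880 for SMARCB1. Whether reads in the shared bases were left uncounted for both genes was not tested.

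SMARCE1 (BAF57; ENSG00000073584, chromosome 17, 40624962 to 40648864) was listed at 0.520 to 0.623 FPKM in the KGN-labelled and 0.155 to 0.326 FPKM in the COV434-labelled libraries, from 48 to 206 reads. Of its principal transcript, 59.7% of the bases are shared with AC073508.2 on the same strand, and that gene had 0 reads in every library. Reads falling where 2 genes overlap can be left uncounted, so the low level of SMARCE1 is uncertain, and whether the overlap set it was not tested. It fell under the filter of a mean of 1 FPKM. With the filter at 0.1 FPKM its log2 fold change with 77-39 was 0.064 in the KGN-labelled libraries (limma adjusted p = 0.592) and 0.00064 in the COV434-labelled ones (adjusted p = 0.999).

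Among the subunits that define the complex type, ARID1A showed the opposite order to the ATPases. ARID1A (ENSG00000117713, chromosome 1, 26693236 to 26782110) had 22.1, 23.6 and 23.2 FPKM in untreated KGN-labelled and 9.68, 4.79 and 5.97 FPKM in untreated COV434-labelled libraries, a mean 3.37 times higher in the former. ARID1B (ENSG00000049618, chromosome 6, 156776020 to 157210779), its mutually exclusive paralogue, ran the same way at lower levels, with 2.17, 2.38 and 2.41 FPKM against 1.68, 0.978 and 0.977 FPKM, a mean 1.91 times higher. For both ARID1 genes all 6 KGN-labelled libraries lay above all 6 COV434-labelled ones. PBRM1 (BAF180; ENSG00000163939, chromosome 3, 52545352 to 52685917), the polybromo subunit of PBAF, was similar, at 6.22, 5.94 and 6.06 FPKM and at 7.56, 6.57 and 6.56 FPKM, and its ranges over 6 libraries overlapped.

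**Figure D2:**
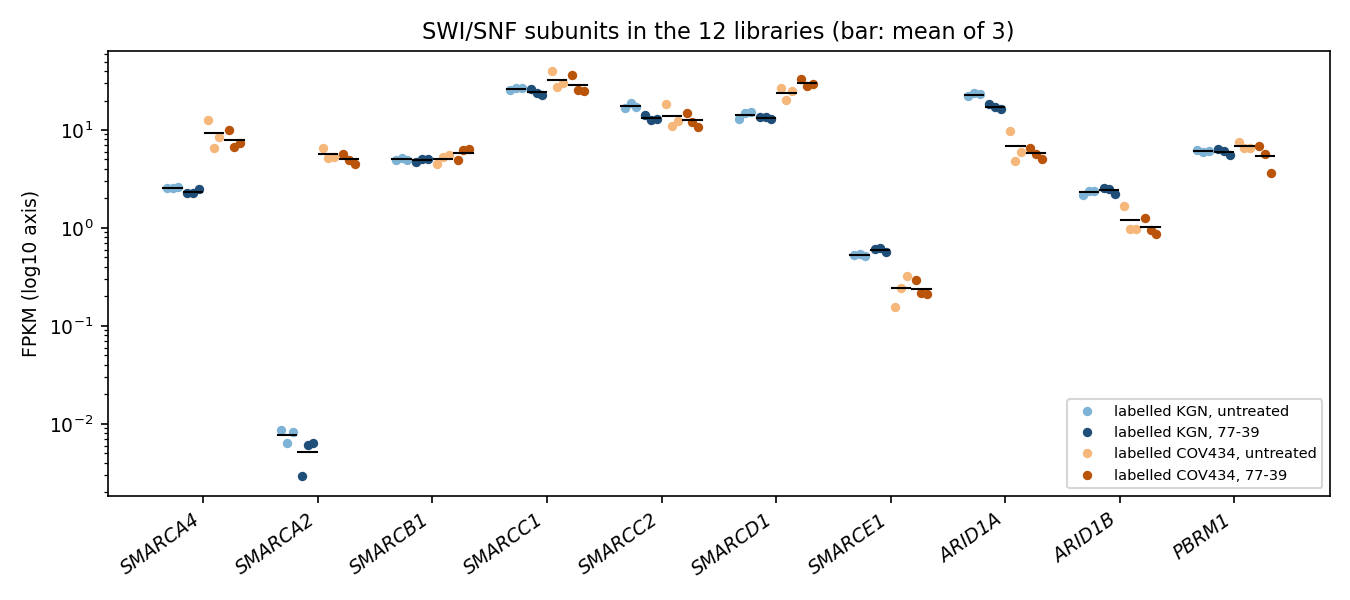
FPKM on a log10 axis (y) of the 10 members (x) in each of the 12 libraries (points, 4 groups in colour) with the mean of each group (short bars). SMARCA2 is the member that falls furthest, to at most 0.00870 FPKM in the KGN-labelled libraries, while SMARCA4 is 3.58 times lower and ARID1A 3.37 times higher there in the untreated means.

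Of the 9 members with a mean of at least 1 FPKM over 12 libraries, 3 (SMARCA4, SMARCA2 and SMARCD1) were higher in all COV434-labelled libraries, where 31.6% of the 13127 genes at that level were. A further 2 (ARID1A and ARID1B) were higher in all KGN-labelled libraries, against 28.8% of all genes. Separation by label was therefore as common among all genes as among the members. Among the members the SMARCA2 difference was the largest. Its size was not compared with that of all genes, and PKP3, for one, had means of 0.0317 and 45.6 FPKM in the KGN-labelled and COV434-labelled libraries.

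In order of untreated level per length of merged exons, the KGN-labelled libraries ran SMARCC1, ARID1A, SMARCC2, SMARCD1, PBRM1, SMARCB1, SMARCA4, ARID1B, SMARCE1 and SMARCA2. No 2 neighbours in that order had overlapping ranges. The order under the COV434 label was SMARCC1, SMARCD1, SMARCC2, SMARCA4, PBRM1, ARID1A, SMARCA2, SMARCB1, ARID1B and SMARCE1. From SMARCC2 to SMARCB1 each of these neighbours overlapped in range, so their order there is not set beyond the spread. Levels per length of merged exons are lowered where little-used exons lengthen a gene. That was so most for ARID1B, with 44677 merged bases against 7962 in its principal transcript, and least for SMARCC1, with 7645 against 6375. The order therefore depends on the length used. Per principal transcript SMARCC1 held 48.5% of the SMARCC pair in the KGN-labelled libraries of both treatments, below SMARCC2.

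Within the paralogue sets the shares of RNA differed by label, and neither protein nor complexes were measured. SMARCC1 made up 62.2% of SMARCC1 and SMARCC2 in the KGN-labelled and 69.9% in the COV434-labelled libraries (SD 2.71 and 1.37, n = 6). Per principal transcript instead of merged exons these shares were 48.5% and 57.0%, so which of both paralogues was the more abundant in the KGN-labelled libraries depends on the length used. ARID1A made up 89.3% and 84.8% of both ARID1 genes (SD 1.72 and 1.18, n = 6), and 73.5% and 65.0% per principal transcript. The widest gap after the ATPases was in the SMARCD set, of which each complex carries 1. SMARCD3, known from heart and muscle, held 36.8% in the KGN-labelled and 7.38% in the COV434-labelled libraries, SMARCD2 held 35.8% and 41.0%, and SMARCD1 27.4% and 51.7%. Per principal transcript SMARCD3 held 51.9% and 12.8%, SMARCD2 27.0% and 38.1%, and SMARCD1 21.1% and 49.1%. The level of SMARCD3 behind this was 20.2 ± 0.926 FPKM in untreated KGN-labelled and 3.34 ± 0.149 FPKM in untreated COV434-labelled libraries, whereas SMARCD2 had 20.2 ± 0.550 and 20.6 ± 2.91 FPKM (SD, n = 3).

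**Figure D3:**
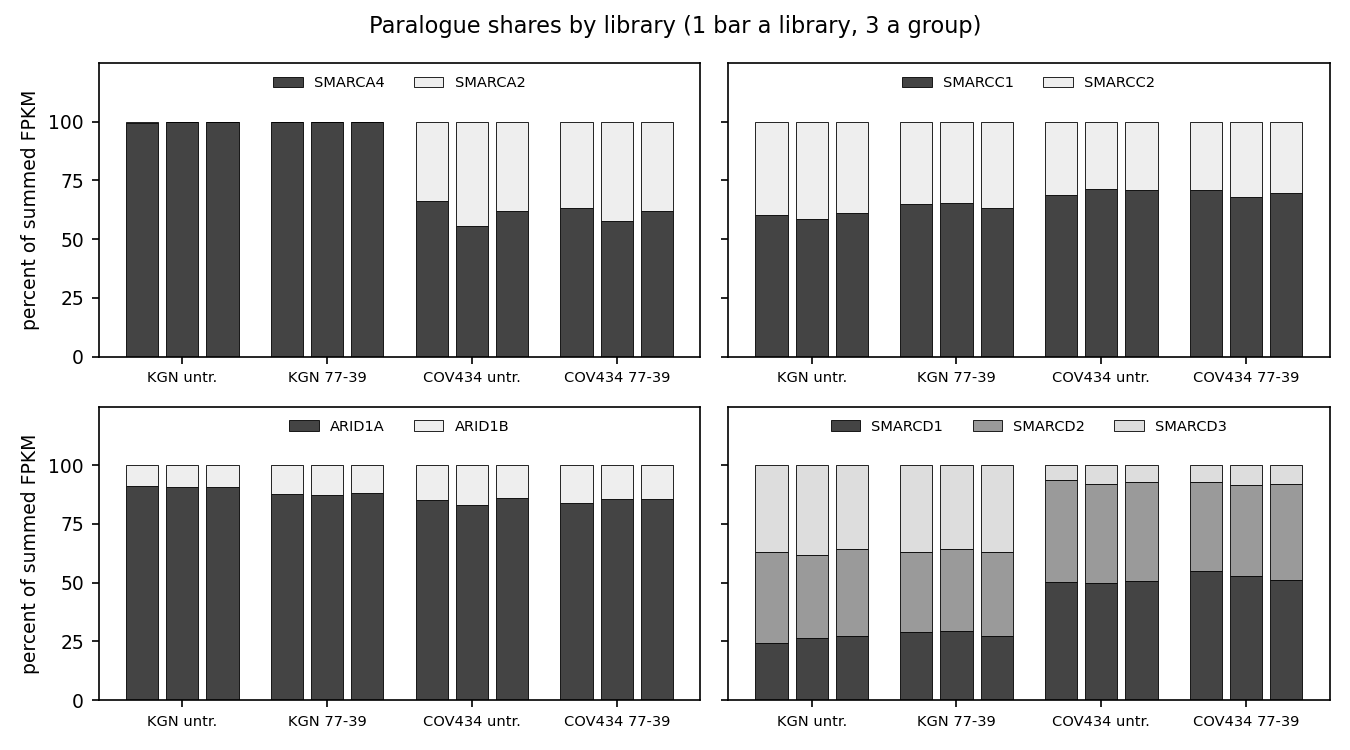
Percent of the summed FPKM of a paralogue set (y axis) in each library (bars, 3 a group, groups on the x axis) for the ATPases, the SMARCC pair, the ARID1 pair and the SMARCD set. SMARCA2 holds almost no share in the KGN-labelled libraries and SMARCD3 a mean of 7.38% in the COV434-labelled ones.

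The other subunits that define a complex type were present under both labels. For PBAF these were ARID2 (5.94 ± 0.807 FPKM in untreated KGN-labelled and 3.98 ± 0.331 FPKM in untreated COV434-labelled libraries), BRD7 (9.39 ± 0.743 and 7.45 ± 1.25) and PHF10 (12.4 ± 0.422 and 14.4 ± 0.0449). Of the bases of BRD7's principal transcript, 40.6% are also covered by ADCY7 on the opposite strand, which had 176 to 306 reads. For the non-canonical complex, BRD9 had 4.47 ± 0.256 and 11.4 ± 2.61 FPKM, BICRA 3.65 ± 0.245 and 2.96 ± 0.341 FPKM, and BICRAL 9.89 ± 0.709 and 5.89 ± 1.66 FPKM (SD, n = 3 throughout). DPF1, a subunit known from neurons, had 10.2 ± 0.494 FPKM in untreated KGN-labelled libraries and 0.182 ± 0.0307 FPKM in untreated COV434-labelled ones, where its sibling DPF2, found in most cells, had 11.6 ± 0.129 and 8.19 ± 0.265 FPKM.

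The genes whose level ran most like that of the ATPases were ranked over the 12 libraries by Pearson's r on log2(FPKM + 1), among 10916 protein-coding genes. For SMARCA4 the nearest 5 were MRGPRE (r = 0.997), SLC46A1, MPRIP, DAB2IP and FAM160A1, and for SMARCA2 they were PKP3 (r = 1.000), GIPC3, EGFR, MYPN and CRIM1. The 12 libraries fall into the groups of the 2 labels, so these values describe genes that differed between labels in the same way, and r is given with no test. EGFR, for one, had means of 0.0309 and 41.4 FPKM in the KGN-labelled and COV434-labelled libraries.

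The response to 77-39 was tested within each label with limma on log2(FPKM + 1), with p-values adjusted over all genes tested. In the KGN-labelled libraries 8 of the 10 members passed the filter of a mean of 1 FPKM, and 2 of the 8, ARID1A and SMARCC2, had an adjusted p under 0.05, where 34.0% of the 12671 genes tested did. Both were lower with 77-39, as were 16.4% of all genes tested. The members' share was thus near that of all genes. Of the 8 fold changes 7 were negative, with a median of -0.10 on the log2 scale against 0.01 for all genes tested. The signs of SMARCB1 and PBRM1 turned when 1 library was left out.

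ARID1A, the largest subunit of canonical BAF, fell from 22.1, 23.6 and 23.2 FPKM to 18.4, 17.1 and 16.2 FPKM in libraries 1, 2 and 3. Every treated library lay below every untreated one, at 0.751 of the untreated mean. The log2 fold change was -0.39 (standard error 0.0571, 95% interval -0.53 to -0.26, limma adjusted p = 0.00306). SMARCC2 fell from 16.9, 19.0 and 17.0 FPKM to 14.1, 12.7 and 13.1 FPKM, again with no overlap, to 0.754 of the untreated mean. Its log2 fold change was -0.38 (standard error 0.0628, 95% interval -0.53 to -0.23, adjusted p = 0.00478). Across 16 settings, both kept an adjusted p under 0.05 in 15, and the exception was 1 fit of all 12 libraries, where the wider spread of the COV434-labelled libraries entered and the adjusted p was 0.217 for ARID1A and 0.188 for SMARCC2.

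The paralogues of these 2 genes did not pass the test. ARID1B had 2.17, 2.38 and 2.41 FPKM without and 2.53, 2.50 and 2.20 FPKM with 77-39, a log2 fold change of 0.04 (95% interval -0.13 to 0.21, limma adjusted p = 0.698). SMARCC1 went from 25.5, 26.8 and 26.9 to 26.0, 24.1 and 22.5 FPKM, a log2 fold change of -0.12 (95% interval -0.27 to 0.02, adjusted p = 0.157). The shares of the sets moved with them: ARID1A from 90.8% ± 0.231 to 87.7% ± 0.416 of the ARID1 pair and SMARCC1 from 60.0% ± 1.34 to 64.5% ± 1.10 of the SMARCC pair (SD, n = 3). For both the exact permutation p was 0.1, the smallest that 3 against 3 libraries allow, so this test could not pass the threshold.

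SMARCA4 in KGN-labelled libraries, the values of which are given above, had a log2 fold change of -0.10 (95% interval -0.25 to 0.04, limma adjusted p = 0.239), although the 3 treated libraries lay below the 3 untreated ones. The values of SMARCD1 (-0.09), SMARCB1 (-0.03) and PBRM1 (-0.01) were small, with intervals of -0.24 to 0.06, -0.15 to 0.09 and -0.14 to 0.12. Without untreated library 1, SMARCD1 came to -0.16 with a limma adjusted p of 0.0388. SMARCA2 could not be tested at 1 to 3 reads per library.

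**Figure D4:**
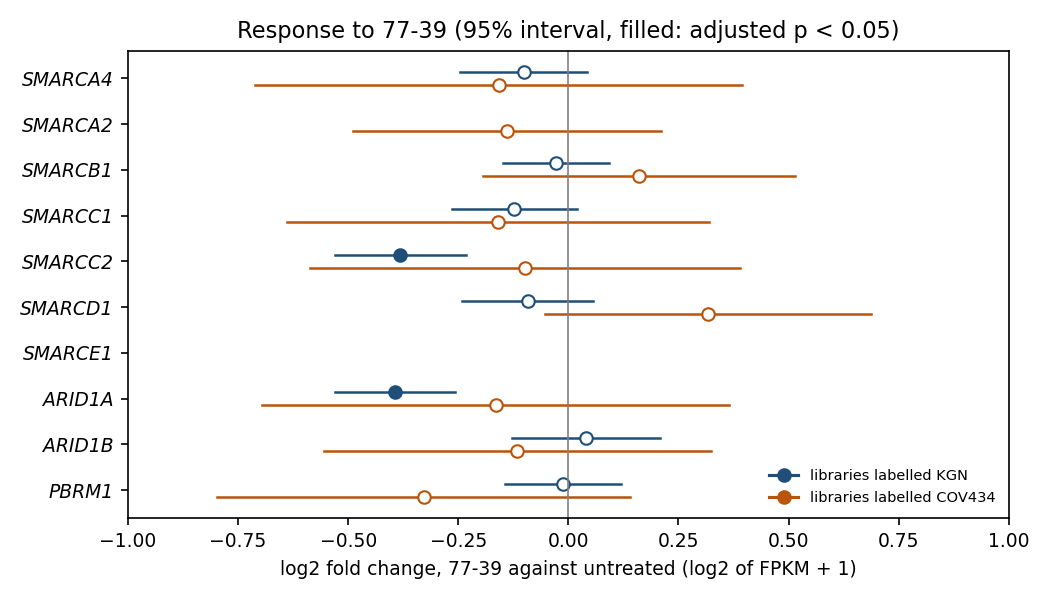
Log2 fold change of log2(FPKM + 1) with 77-39 against untreated (x axis) for the members (y axis), with 95% intervals, in the KGN-labelled and COV434-labelled libraries (colours). Filled points had a limma adjusted p under 0.05, which were ARID1A (-0.39) and SMARCC2 (-0.38) in the KGN-labelled libraries, and the intervals of the COV434-labelled libraries are wider and all include 0. Members under the level filter have no point.

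Among 21 other SWI/SNF subunits, 17 were tested in the KGN-labelled libraries, and 7 had an adjusted p under 0.05, all lower with 77-39, where 34.0% of all genes tested were called and 16.4% were called lower. Their median log2 fold change was -0.14. DPF1 fell most, from 10.2 ± 0.494 to 4.61 ± 0.350 FPKM (log2 fold change -1.0, standard error 0.0620, limma adjusted p = 0.000204). ACTB, the beta-actin that is also the cell's main cytoskeletal actin, fell from 1889 ± 78.2 to 1099 ± 74.7 FPKM (-0.78, adjusted p = 0.000977), although without the filter its adjusted p was 0.0596. SMARCD2 fell from 20.2 ± 0.550 to 16.3 ± 0.776 FPKM (-0.30, adjusted p = 0.00485) and SMARCD3 from 20.2 ± 0.926 to 17.2 ± 0.699 FPKM (-0.23, adjusted p = 0.0159; SD, n = 3 throughout). SMARCD3 passed in 12 of 16 settings, and not with the library number as a block, in 1 fit of all 12 libraries or without untreated or treated library 2. The smaller changes of BICRA (-0.23), ACTL6A (-0.20) and DPF2 (-0.15) had adjusted p-values of 0.0279, 0.0282 and 0.0270 and passed in 7, 8 and 8 of 16 settings. The subunits that define PBAF, ARID2 (0.08), BRD7 (-0.11) and PHF10 (0.02), did not pass, nor did BRD9 (-0.03) or BICRAL (-0.14).

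The COV434-labelled libraries varied more, and no member passed there. Of 9 members tested, 0 had a limma adjusted p under 0.05, where 0.0415% of the 12060 genes tested did, and 0 had an unadjusted p under 0.05, where 8.00% of genes did. In voom on the recovered reads the number of called members was also 0. Same-numbered libraries deviated together under this label, and blocking on that number raised the called genes from 5 to 87, of which 0 were members. With the block 1 member, SMARCD1, had an unadjusted p under 0.05, where 14.4% of genes did. Of the 9 fold changes 7 were negative, with a median of -0.14 against -0.02 for all genes tested.

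SMARCD1 had the smallest p of the members there. It went from 26.9, 20.5 and 25.1 FPKM to 33.4, 27.8 and 29.3 FPKM, so that the treated libraries lay above the untreated ones, with a log2 fold change of 0.32 (95% interval -0.05 to 0.69, limma unadjusted p = 0.0834, adjusted p = 0.719). With the library number as a block, SMARCD1 was higher in all 3 pairs, with a standard error of 0.105 in place of 0.161 (limma unadjusted p = 0.0214, adjusted p = 0.251). PBRM1 went from 7.56, 6.57 and 6.56 FPKM to 6.86, 5.75 and 3.67 FPKM, a log2 fold change of -0.33 (95% interval -0.80 to 0.14, adjusted p = 0.787), and treated library 3 was the lowest. For both ATPases the intervals without the block were wide. They ran from -0.71 to 0.39 around -0.16 for SMARCA4 and from -0.49 to 0.21 around -0.14 for SMARCA2. A change of the size seen for ARID1A in the KGN-labelled libraries lay within both. ARID1A itself had 9.68, 4.79 and 5.97 FPKM without and 6.56, 5.63 and 5.09 FPKM with 77-39 (-0.17, 95% interval -0.70 to 0.37), and SMARCC2 18.3, 11.0 and 12.3 FPKM and 15.0, 12.2 and 10.8 FPKM (-0.10, 95% interval -0.59 to 0.39).

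SMARCC1 (-0.16), ARID1B (-0.12) and SMARCB1 (0.16) completed the members, with intervals of -0.64 to 0.32, -0.56 to 0.32 and -0.19 to 0.52. The negative values of 4 members rested on untreated library 1. Without it SMARCA4, SMARCC2, ARID1A and ARID1B had log2 fold changes of 0.07, 0.11, 0.08 and 0.03. None of 16 other subunits tested was called, and 1 of them, SMARCD3, had an unadjusted limma p under 0.05, where 0.0415% and 8.00% of all genes were past these thresholds. Its level was 3.34 ± 0.149 FPKM without and 4.38 ± 0.190 FPKM with 77-39, a log2 fold change of 0.31 with a limma adjusted p of 0.602.

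Whether the response differed between the labels was tested as an interaction over all 12 libraries. Of 9 members tested, 0 had an adjusted p under 0.05, where 3.60% of 13127 genes did. SMARCD1 alone, 1 of the 9, had an unadjusted p under 0.05, where 18.0% did. The 9 include SMARCA2, which passed the filter only through the COV434-labelled libraries. At 1 to 3 reads in each KGN-labelled library, its test cannot show whether its response differed. For SMARCD1 the KGN-labelled response was lower by 0.41 on the log2 scale (95% interval of the difference -0.76 to -0.06, unadjusted p = 0.0255, limma adjusted p = 0.198). The differences for ARID1A (-0.23, 95% interval -0.79 to 0.34) and SMARCC2 (-0.28, 95% interval -0.80 to 0.23) had adjusted p-values of 0.715 and 0.592. The calls of ARID1A and SMARCC2 in the KGN-labelled libraries alone are therefore not shown to be particular to them.

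The spread among the COV434-labelled libraries followed the library number. Library 1 was the highest for 8 of 10 members in both the untreated and the treated group, which was so for 24.3% of all 12060 genes tested there, and SMARCB1 ran the other way, with library 1 the lowest in both. The highest library of a group was 1.15 to 2.10 times the lowest over the members (median 1.44, against 1.40 over all genes tested). The KGN-labelled libraries differed by 1.02 to 1.17 times (median 1.10, against 1.14 over all genes tested), for the 9 members other than SMARCA2, and library 1 was the highest in both groups for 1 of the 9. Mitochondrially encoded genes took 13.51% of the reads in treated COV434-labelled library 1 against 7.3% to 9.63% in the other 11 libraries, and the part of this in the spread was not tested.

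**Figure D5:**
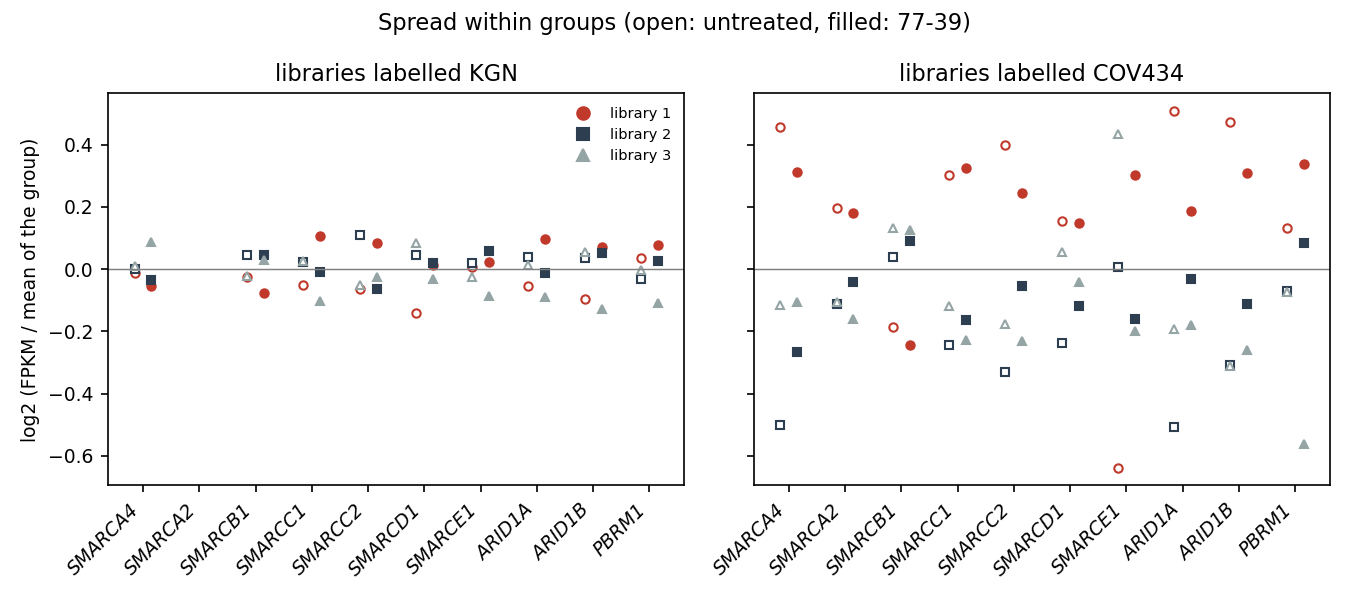
Log2 of each library's FPKM over the mean of its group (y axis) for the members (x axis), by library number (colour and shape) and treatment (open untreated, filled 77-39), in the KGN-labelled (left) and COV434-labelled (right) libraries. Library 1 lies above the group mean for most members on the right, with SMARCB1 below it in both groups, and the points on the left lie closer to 0. SMARCA2 is left out on the left, where it had 1 to 3 reads.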

How the data were processed

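RNA from 12 cell line libraries was sequenced as Illumina TruSeq libraries, 3 per line and treatment. Per the submitters' processing notes, reads were aligned with HISAT2 (v2.0.5). The notes name mouse builds, but all 58735 genes, coordinates and merged-exon lengths of the deposited table equal human GENCODE release 29 (GRCh38). The gene counter is not given in the sources used here. Expression values were deposited by the authors as FPKM, fragments scaled to merged-exon length and a depth per library. That depth was not the recovered total alone. FPKM multiplied by gene length gave whole multiples of 1 step per library for 100.0% of values within 0.05, from which reads were recovered.

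Treatment was tested per line with limma (v3.58.1, R v4.3.3, trended empirical Bayes, two-sided) on log2(FPKM + 1) for genes averaging 1 FPKM or more, with Benjamini-Hochberg adjustment over all genes and a threshold of 0.05. The difference between lines was an interaction over 12 libraries. Fold changes on this scale understate the change of low genes. Shares were compared with exact permutation tests (scipy v1.17.1). The same-numbered untreated and treated libraries deviated together in those labelled COV434 (correlations over genes of 0.4, 0.474 and 0.166). Those labelled KGN did not (-0.016, -0.018 and -0.019). Under the COV434 label, untreated library 3 and treated library 2 came to 0.154, close to the 0.166 of the libraries numbered 3. A pairing by number thus rests on the data alone. The main fits and the interaction left the number out, and it entered only as a block in an alternative. The fits were also run on simulated libraries drawn independently of each other, so that check does not cover joint deviation by library number.

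The members, the lists of 21 other subunits, 26 other remodellers and 27 Polycomb genes, and the tests were chosen with earlier results of these data known. All 10 members are named. Of the other subunits those called, the paralogue partners and those defining PBAF or the non-canonical complex are named. Of remodellers up to 4 and of Polycomb genes EZH2 and up to 3 per line are named, those with the smallest p, and for each ATPase 5 genes by likeness. Alternatives were the pseudocount (0.1), the filter (0.1 FPKM or none), median-ratio and quantile scaling, protein-coding genes only, the library number as a block, voom on recovered reads, 1 fit of 12 libraries and leaving out each library. No 2 libraries held identical values.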

Additional observations from a re-analysis of the deposited data

Results flagged for a closer look

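The response to 77-39 differed between the labels in limma's interaction test for 5 genes of the lists outside the 10 members, and each log2 fold change was lower in the KGN-labelled libraries. Over all 13127 genes tested 3.60% were called.

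For SMARCD3 the difference in log2 fold change was -0.54 (standard error 0.104, limma adjusted p = 0.0216), from 20.2 to 17.2 FPKM in the KGN-labelled and from 3.34 to 4.38 FPKM in the COV434-labelled libraries. All 3 treated libraries lay below the untreated ones under the first label and above them under the second. The call held in 16 of 21 settings, with adjusted p-values from 0.0158 to 0.0774, and was lost without any 1 of the KGN-labelled libraries other than treated library 3.

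DPF1 differed by -0.87 (standard error 0.111, adjusted p = 0.00288), from 10.2 to 4.61 FPKM and from 0.182 to 0.0789 FPKM. It had 4 to 16 reads in each COV434-labelled library, where adding 1 FPKM hides most of a change. With a pseudocount of 0.1 the difference was -0.46 (limma adjusted p = 0.329). In voom on the recovered reads, where no 1 is added to the level, the difference was 0.040 (adjusted p = 0.982). The treated mean was 0.451 of the untreated mean under the KGN label and 0.433 of it under the COV434 label, where the level was too low for the test within the line.

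ACTB differed by -0.89 (standard error 0.181, adjusted p = 0.0247), from 1889 to 1099 FPKM and from 1377 to 1477 FPKM. The call held in 13 of 21 settings and was lost without any 1 of the KGN-labelled libraries, with no filter and under quantile normalization. Under quantile normalization the difference was -0.15 (adjusted p = 0.737).

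RAD54L, a recombination motor of the same ATPase family, differed by -0.63 (standard error 0.148, adjusted p = 0.0429), from 6.97 to 3.96 FPKM and from 8.25 to 7.91 FPKM. It was called in 6 of 21 settings and was lost without any 1 library other than untreated or treated COV434-labelled library 1.

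RING1, a ubiquitin ligase of the first Polycomb complex, named after its value was seen, differed by -0.61 (standard error 0.130, adjusted p = 0.0288), from 33.1 to 24.7 FPKM and from 33.0 to 38.1 FPKM. The call held in 12 of 21 settings and was lost in voom, without any 1 of the KGN-labelled libraries, and without untreated library 3 or treated library 2 of the COV434-labelled ones.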

How the results depend on the processing

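The 2 called members of the KGN-labelled libraries, ARID1A and SMARCC2, kept their calls in every alternative but 1. In 1 fit of all 12 libraries, which shares the wider spread of the COV434-labelled libraries, 0 members and 1237 genes were called. Under the COV434 label and in the interaction the number of called members was 0 in every alternative run. The COV434-labelled gene count was 3 with a pseudocount of 0.1, 3 with a filter of 0.1 FPKM, 1 with no filter, 37 for protein-coding genes, 87 with the replicate block, 25 in voom and 488 in 1 fit of all 12 libraries, and the interaction count was 261 in voom. With the number as a block, the KGN-labelled count was 3277. Of the genes of the lists, SMARCD3, DPF2, BICRA, ACTL6A, ATRX, CHD1L, EED and PCGF2 were no longer called there and PCGF6 was, and in the interaction RAD54L was not. The block changed no other call of the members or of the 3 gene lists. Leaving out 1 library gave 2751 (without treated library 2) to 4128 called genes for KGN, 1 (without untreated library 1 or 3 or treated library 2 or 3) to 7 for COV434, where it was 2 without untreated library 2, and 126 (without treated KGN-labelled library 1) to 975 (without treated COV434-labelled library 1) for the interaction.

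Log2 fold changes near 0 changed sign without 1 library. Their ranges in the KGN-labelled libraries were -0.048 to 0.0037 for SMARCB1, -0.047 to 0.033 for PBRM1, -0.019 to 0.15 for ARID2, -0.0059 to 0.039 for PHF10 (and -0.0072 with median-ratio scaling) and -0.058 to 0.0081 for BRD9. In the COV434-labelled ones they were -0.36 to 0.072 for SMARCA4, -0.24 to 0.11 for SMARCC2, -0.36 to 0.085 for ARID1A and -0.20 to 0.030 for ARID1B. Without untreated library 1 the KGN-labelled BICRAL was called (-0.20, limma adjusted p = 0.0321). The interaction of DPF1 was 0.040 in voom. The cause of these changes was not tested.

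Between labels, the untreated log2 ratio (COV434 over KGN) with a pseudocount of 0.1 was 5.73 for SMARCA2 (2.72 with 1), -0.91 for SMARCE1 and -0.92 for ARID1B, since the pseudocount bounds a ratio of low levels. Quantile normalization gave -0.15 for SMARCC1, where the main value was 0.27, -0.12 for SMARCE1 and 0.35 for SMARCD1, so the order of SMARCC1 between labels turned. Shares counted in reads, in the KGN-labelled and then the COV434-labelled libraries, were 74.9% and 66.6% for ARID1A, 30.2% and 58.1% for SMARCD1, 28.7% and 33.5% for SMARCD2 and 41.1% and 8.40% for SMARCD3, and under the COV434 label 57.2% for SMARCA4 and 67.5% for SMARCC1. With the principal transcript as length, an alternative chosen after seeing the data, they were 48.5% and 57.0% for SMARCC1, 73.5% and 65.0% for ARID1A, 21.1% and 49.1% for SMARCD1, 27.0% and 38.1% for SMARCD2 and 51.9% and 12.8% for SMARCD3.

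With 3 libraries a group, the COV434-labelled intervals of ARID1A and SMARCC2 were wide in the fit without the block. They included the changes called in the KGN-labelled libraries. At 1 to 3 reads nothing can be said of a response of SMARCA2 in the KGN-labelled libraries.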

Other observations

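Chromatin genes outside SWI/SNF were compared in the KGN-labelled libraries too. Of 24 tested remodellers of the SNF2 family outside SWI/SNF, 2 rose and 3 fell, where 34.0% of all genes tested were called, and the median log2 fold change was 0.00. HELLS, a helicase of DNA methylation and replication, fell from 4.75 ± 0.322 to 3.09 ± 0.0126 FPKM (log2 fold change -0.49, limma adjusted p = 0.00153) and HLTF, which acts at stalled replication forks, from 12.2 ± 0.496 to 10.2 ± 0.367 FPKM (-0.24, adjusted p = 0.0117). RAD54L fell by 0.68 on the log2 scale (adjusted p = 0.00128). ATRX, which deposits histone H3.3 at heterochromatin, rose from 4.90 ± 0.433 to 6.25 ± 0.416 FPKM (0.30, adjusted p = 0.0191), in 10 of 16 settings, and CHD1L, named here because only 2 rose, by 0.19 (adjusted p = 0.0489), in 6 of 16.

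The Polycomb repressors, which oppose SWI/SNF at many genes, had 12 of 27 tested genes called in the KGN-labelled libraries, 3 higher and 9 lower, against 34.0% of all genes called and 16.4% called lower. CBX8, a chromodomain subunit of the first Polycomb complex, fell from 9.52 ± 0.412 to 5.83 ± 0.197 FPKM (log2 fold change -0.62, limma adjusted p = 0.000419), while BMI1, a RING finger subunit of the same complex, rose from 6.94 ± 0.443 to 11.3 ± 0.731 FPKM (0.63, adjusted p = 0.000946). The histone chaperone RBBP7 fell by 0.38 (adjusted p = 0.00170). EZH2, the methyltransferase of the second Polycomb complex, fell from 19.7 ± 0.831 to 16.8 ± 0.815 FPKM (-0.22, adjusted p = 0.0210; SD, n = 3 throughout), in 12 of 16 settings.

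Under the COV434 label 0 of 22 remodellers and 0 of 27 Polycomb genes were called by limma, with 0 and 3 at an unadjusted p under 0.05, where 0.0415% and 8.00% of all genes were past these thresholds. The 3 were AEBP2 (log2 fold change -0.36), RBBP7 (-0.38) and EZH2 (-0.41, unadjusted p = 0.0451, adjusted p = 0.602).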
